A study of Mus musculus with 653 samples.

Results

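The Wnt pathway was followed through 46 genes of the 54195 in the count table. They comprised 19 ligands of the *Wnt* family, 12 receptors (*Fzd1* to *Fzd10*, *Lrp5* and *Lrp6*), 9 secreted inhibitors (*Sfrp1*, *Sfrp2*, *Sfrp4*, *Sfrp5*, *Frzb*, *Dkk1*, *Dkk2*, *Dkk3* and *Wif1*) and 6 targets or effectors (*Axin2*, *Nkd1*, *Tcf7*, *Lef1*, *Sp5* and *Ctnnb1*). The genes were listed by name as parts of the pathway, with earlier results of these data known. All 46 were found in the table.

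Wnt ligands are secreted lipid-modified proteins that bind a Frizzled receptor together with Lrp5 or Lrp6 on a nearby cell. Binding stops the degradation of β-catenin, the product of *Ctnnb1*, which enters the nucleus and switches on target genes with Tcf and Lef factors. Secreted inhibitors act outside the cell, either by binding the ligand (Sfrp, Frzb and Wif1 proteins) or by binding Lrp5 and Lrp6 (Dkk1 and Dkk2). In the liver the pathway is known for its part in hepatoblast growth and, later, in the zonation of hepatocytes. *Lgr5*, a receptor for R-spondins, is itself a Wnt target in several tissues.

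Single cells were taken from livers of embryos at embryonic days E10.5 and E13.5. Males that carried the Lgr5-EGFP-IRES-creERT2 allele on a C57BL/6 background had been mated with MF1 females. The allele drives GFP from the *Lgr5* locus, so that GFP reports *Lgr5* activity. All 4 groups came from this mating, and the labels give no genotype for single embryos. Cells without CD31 and CD45, markers of endothelial and blood cells, that carried the hepatoblast antigen Liv2 were sorted either as bulk cells or by Lgr5-GFP. There were 653 cells, each with its own Smart-seq2 library. Library pools 1 to 5 held 42, 41, 41, 42 and 37 E10.5 bulk cells, 45, 47, 40, 41 and 38 E10.5 Lgr5-GFP+ cells, 34, 34, 33, 34 and 24 E13.5 bulk cells, and 13, 27, 19, 14 and 7 E13.5 Lgr5-GFP+ cells. Reads per cell ran from 463347 to 2279700 with a median of 1192740, and the medians of the 4 groups lay between 1092637 and 1260402. The study describes biological replicates, but the labels do not tie cells to them, to embryos or to sorting sessions, so a group counted as 1 sample and no test between groups could be made. The 5 pools served as technical batches.

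Levels are summed reads of a gene per 1000000 reads on all genes (RPM) with the exact 95% Poisson interval. A cell was said to have a gene when it held more than 10 of its reads, and shares of cells carry the exact 95% binomial interval of Clopper and Pearson. Where no cell had a gene, the share that 3 cells would give is set beside the upper end of that interval. Both intervals cover counting error only, and reads without molecular identifiers are not independent molecules. A summed level cannot tell apart fewer cells with a gene from less RNA per cell, so the share of cells is given with it. Levels of different genes were compared only after division by exon length (RPM per kilobase of exon, RPKM).

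Lineages were set by marker genes outside the list. A cell belonged to a lineage when exactly 1 of *Afp*, *Klf1*, *Pdgfra* and *Pax3* had more than 10 reads. The *Afp* set held 61 cells, of which 59 were from E10.5 and 53 of these were Lgr5-GFP+. The *Klf1* set held 160 cells, 32 from E10.5, all of them bulk, and the rest from E13.5. The *Pdgfra* set held 75 bulk and 64 Lgr5-GFP+ cells from E10.5 and 8 cells from E13.5. The *Pax3* set held 30 cells, of which 25 were from E10.5, 23 of these Lgr5-GFP+ and 2 bulk. Comparisons between lineages at E10.5 were therefore also between unlike mixtures of the sorts. The part of the sort in their ratios was not tested. A further 242 cells had no marker and 13 had several, and both were kept apart from the lineages. No doublet caller was run.

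Lists of markers of each kind were then counted in the lineages. The hepatoblast, erythroid, mesenchymal and muscle lists include *Afp*, *Klf1*, *Pdgfra* and *Pax3* in turn. Every cell of a lineage thus held 1 marker of its own list by the rule that set the lineage. The share for that list is therefore not an independent check of the lineage. At least 3 of 12 hepatoblast markers were found in 100% of the *Afp* cells at E10.5, and at least 3 of 10 erythroid markers in 100% of the *Klf1* cells at E10.5 and 99.2% at E13.5. At least 3 of 9 mesenchymal markers were present in 90.6% of the *Pdgfra* cells at E10.5. In the same cells at least 3 erythroid markers were found in 18% (29.3% of bulk and 4.69% of Lgr5-GFP+ cells). At least 3 of 5 mesothelial markers were found in 13% of them. In the *Pax3* cells at E10.5, at least 3 of 7 markers of muscle progenitors were found in 80% of cells and at least 3 mesenchymal markers in 48%. *Lbx1*, a factor of migrating muscle progenitors, was present in 80% of the *Pax3* cells, while *Pax7* was present in 0 of 25. The labels call every cell a hepatoblast, whereas 61 of 653 cells met the rule of the *Afp* lineage. That rule asks for *Afp* and for no other lineage marker. It left out 4 cells with *Afp* and *Pdgfra* and 1 cell with *Afp* and *Klf1*. The 61 cells are therefore not a count of all cells with at least 3 hepatoblast markers. The erythroid share that follows was counted by a list and is not on the same measure. By lists, 93.1% of E13.5 bulk cells had at least 3 erythroid markers. The 33 *Afp* cells of pool 2 were more than those of the other pools together, so that pool 2 weighs most on the *Afp* values.

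In the 4 lineages at E10.5, ligands and secreted inhibitors were found in more of the *Pdgfra* and *Pax3* cells than of the *Afp* and *Klf1* cells. Receptors were detected in all 4 lineages. Targets other than *Ctnnb1* were present in the *Pdgfra*, *Pax3* and *Afp* cells and in few *Klf1* cells. Values are given in full for the 22 genes that were present in at least 10% of cells of any lineage or group. The other 24 are given by the number of cells that had them or its range.

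**Figure D1:**
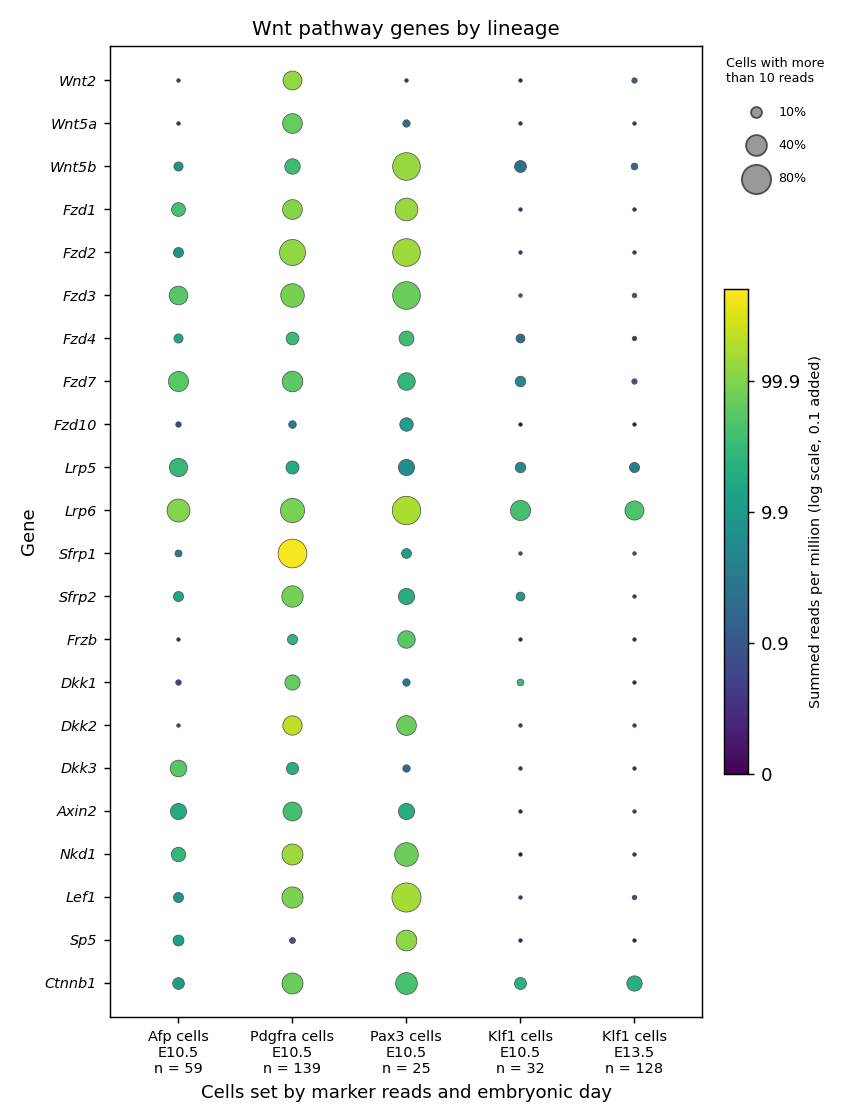
Dot plot of the 22 Wnt pathway genes given in full, in rows, against the lineages, in columns. Dot area is the percentage of cells with more than 10 reads and colour is the summed level in RPM on a log scale. *Sfrp1* is the largest dot of the *Pdgfra* column (77.7% of cells), *Lef1* of the *Pax3* column (80%) and *Lrp6* of the *Afp* column (49.2%).

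Of the ligands, *Wnt2*, *Wnt5a* and *Wnt5b* passed that limit. *Wnt2*, a canonical ligand (chr6:17988940-18030585, minus strand, GRCm38), was at 123.9 RPM (122.3 to 125.6) in *Pdgfra* cells at E10.5, with more than 10 reads in 46 cells (33.1%, 25.4 to 41.6). Its level was 15.3, 61.6, 198.4, 162.2 and 137.4 RPM in pools 1 to 5. The *Afp* cells held 12 *Wnt2* reads in all (0.164 RPM) and no cell with more than 10, which allows a share of up to 5.08% (3 of 59 cells) or, by the exact interval, 6.06%. The gene was therefore low in every pool of *Afp* cells, whose highest pool had 0.235 RPM. It was at 0.051 RPM in *Klf1* cells and at 0.0949 RPM in *Pax3* cells at E10.5.

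*Wnt5a*, which mostly signals through the β-catenin-independent branch (chr14:28504750-28527448, plus strand), showed the same split. Its level was 64.9 RPM (63.7 to 66.2) in *Pdgfra* cells, where 36% of cells (28 to 44.5) had it, and pools 1 to 5 gave 79.3, 64.8, 92.7, 59.1 and 24.8 RPM. The *Afp* cells held 6 reads of it in all (0.0818 RPM). The *Pax3* cells were at 2.18 RPM, and 81.2% of those reads came from 1 cell.

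*Wnt5b*, a close relative of *Wnt5a* (chr6:119432531-119544347, minus strand), had another distribution. It was highest in *Pax3* cells at 130.7 RPM (126.7 to 134.7) and was present in 18 of 25 of them (72%, 50.6 to 87.9). The *Pdgfra* cells had 35.5 RPM and 21.6% of cells, with pool 1 at 0.276 RPM and the other pools between 38.7 and 63.7 RPM. *Afp* cells were at 7.42 RPM and *Klf1* cells at 2.14 RPM at E10.5, where 12.5% of cells (4 of 32) had it. Per kilobase, *Wnt2* led the ligands of the *Pdgfra* cells (55 RPKM, before *Wnt5b* at 13.4 and *Wnt5a* at 8.3 RPKM), and *Wnt5b* led those of the *Pax3* cells (49.2 RPKM, before *Wnt16* at 2.56 RPKM).

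The other 16 ligands were sparse, each with more than 10 reads in 0 to 32 of 653 cells. *Wnt11* was present in 14 *Pdgfra* cells at E10.5 at 13.3 RPM, or 9.52% of the *Pdgfra* cells of both stages, just under the limit, and it had 0 reads in *Klf1* and *Pax3* cells at E10.5. *Wnt4* was at 8.25 RPM in *Pdgfra* cells and 5.14 RPM in *Afp* cells, with 6.47% and 6.78% of cells. Several levels rested on 1 cell. All 1904 *Wnt2b* reads of the *Afp* cells came from 1 cell, as did all 353 *Wnt16* reads of the *Pax3* cells, and the level of a set was no description of its other cells there. *Wnt8a* was listed at 0 in every cell. *Wnt8b* had 48 reads in 44 cells and more than 10 in none. *Itgam* and *Tubb3*, 2 of the marker genes, were also listed at 0 in every cell, so that a 0 in this table says only that the gene is listed at 0.

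Of the receptors, 8 of 12 passed the limit, and they were spread more evenly than the ligands. *Fzd2* was at 119.6 RPM in *Pdgfra* cells, where 63.3% of cells had it (54.7 to 71.3), and pools 1 to 5 were close together at 122.6, 124.01, 117.4, 107.4 and 133.9 RPM. *Pax3* cells were similar at 142.2 RPM and 72% of cells. *Afp* cells had 7.65 RPM and 8.47% of cells, and *Klf1* cells at E10.5 had 8 reads in all.

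*Fzd7* was the Frizzled most widely detected in *Afp* cells (54.9 RPM, 37.3% of cells, 25 to 50.9). Its pools 2 to 5 gave 62.7, 64.3, 38.7 and 33.8 RPM in *Afp* cells. In *Pdgfra* cells the level was 59 RPM and the share 39.6%, so the intervals of the shares overlapped widely. *Fzd3* was at 52.5 RPM in *Afp* cells (32.2% of cells) and at 85.2 RPM in *Pdgfra* cells (51.8%). *Fzd1* was at 41.9 RPM in *Afp*, 107.98 RPM in *Pdgfra* and 132.8 RPM in *Pax3* cells, but its *Afp* pools ran from 3.69 to 97.4 RPM.

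*Fzd4*, which also serves as the receptor for the non-Wnt ligand norrin, was at 32.5 RPM in *Pdgfra*, 36.2 RPM in *Pax3* and 16.5 RPM in *Afp* cells at E10.5. *Fzd10* was at 11.5 RPM in *Pax3* cells (16% of cells) and at 3.18 RPM in *Pdgfra* cells. The remaining Frizzled genes were each found in few cells. *Fzd5*, *Fzd6*, *Fzd8* and *Fzd9* had more than 10 reads in 27, 24, 19 and 1 of 653 cells.

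The co-receptor *Lrp6* was the receptor gene found in most cells of the list, 272 of 653. Its level was 102.1 RPM (99.8 to 104.5) in *Afp* cells, 87.4 RPM in *Pdgfra* cells, 169.2 RPM in *Pax3* cells and 39.2 RPM in *Klf1* cells at E10.5. The corresponding shares were 49.2%, 54.7%, 76% and 37.5%. *Afp* and *Pdgfra* cells were close, and their pools overlapped (66.1 to 120.5 RPM against 29.8 to 120.9 RPM). *Lrp5* was at 30.2 RPM in *Afp* cells, with pools 2 to 5 at 26.6, 29.2, 60.5 and 37.1 RPM. In *Pdgfra* cells it was at 17.3 RPM, of which 43% came from 1 cell. *Lrp6* has a longer exon sequence than each Frizzled gene, and per kilobase *Fzd7* (12.1 RPKM) and *Fzd1* (9.98 RPKM) stood above *Lrp6* (7.47 RPKM) in *Afp* cells.

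**Figure D2:**
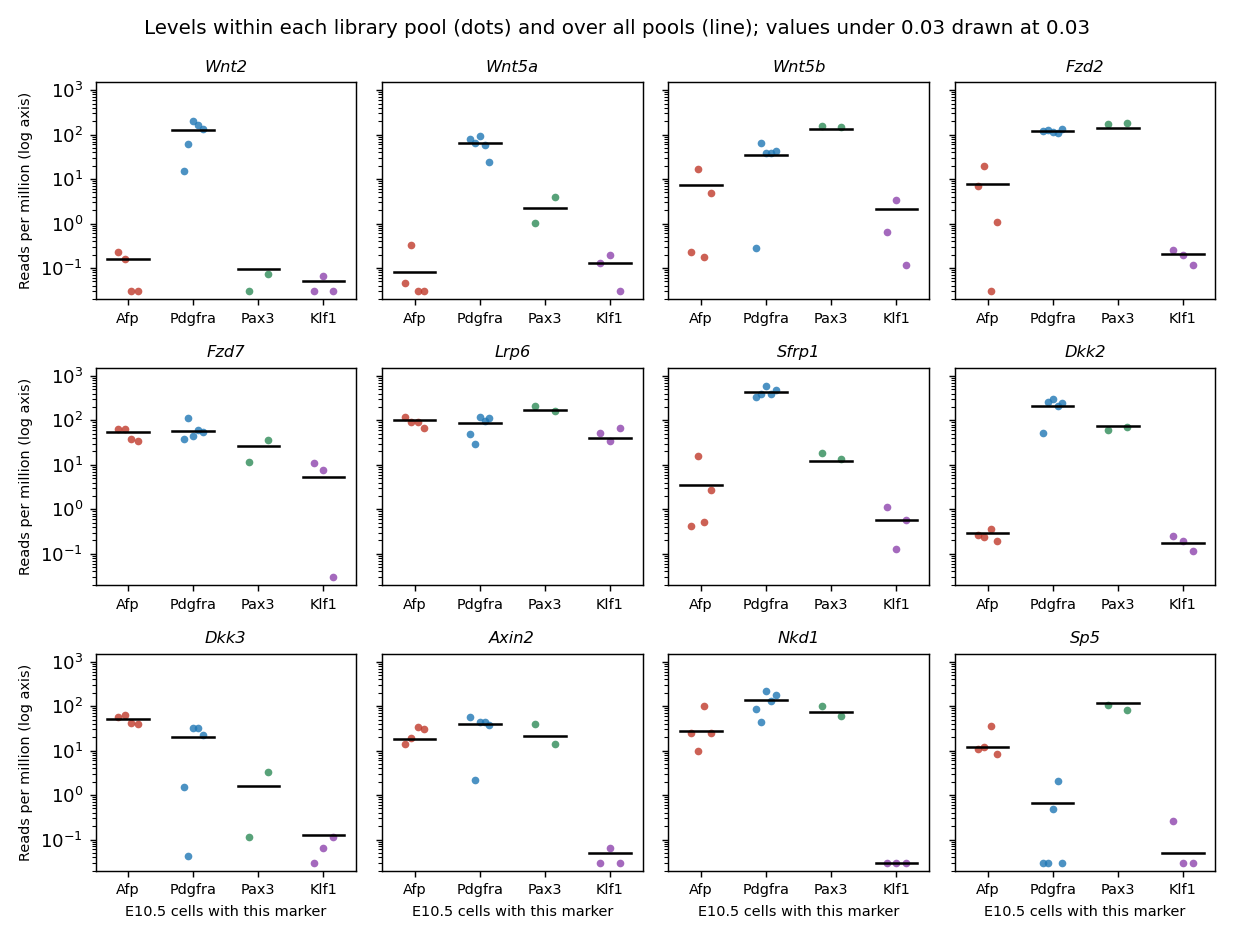
Levels of selected genes in RPM (log axis) in each lineage at E10.5, with a dot for each library pool and a line for all pools together. Values under 0.03 are drawn at 0.03. The *Pdgfra* dots of *Wnt2*, *Sfrp1* and *Dkk2* lie above every *Afp* dot of the same gene, and those of *Lrp6* overlap.

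Of the secreted inhibitors, *Sfrp1*, *Dkk2*, *Sfrp2* and *Dkk1* were highest in the *Pdgfra* cells. *Sfrp1*, a soluble Frizzled-like protein that binds Wnt ligands (chr8:23411502-23449632, plus strand), was at 446 RPM (443 to 449) in *Pdgfra* cells and present in 77.7% of them (69.9 to 84.3). Pools 1 to 5 gave 345, 395, 602, 389 and 483 RPM. *Afp* cells had 3.46 RPM, and their highest pool (16.2 RPM) lay under the lowest *Pdgfra* pool. *Pax3* cells had 11.9 RPM and *Klf1* cells at E10.5 had 0.562 RPM.

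*Dkk2*, which binds Lrp5 and Lrp6 (chr3:132085292-132180304, plus strand), was at 212.4 RPM (210.3 to 214.6) in *Pdgfra* cells, where 34.5% of cells had it. Its pools 1 to 5 were at 50.9, 252.7, 300.6, 208.02 and 248.7 RPM. *Pax3* cells were at 73.1 RPM with a like share of cells, 36%. In *Afp* cells no cell had more than 5 reads of it (0.286 RPM).

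*Sfrp2* was at 81.2 RPM in *Pdgfra* cells (42.4% of cells), 21 RPM in *Pax3* cells and 14.9 RPM in *Afp* cells, where pool 5 held most of it at 85.2 RPM and pools 3 and 4 had 0.0808 and 0 RPM. *Dkk1*, a Wnt antagonist of the same family as *Dkk2*, was at 65.2 RPM in *Pdgfra* cells (20.9% of cells) and 0.409 RPM in *Afp* cells. In *Klf1* cells at E10.5 *Dkk1* was at 34.5 RPM, but 99.8% of these reads came from 1 cell. *Frzb*, a further soluble Frizzled-like protein, was highest in *Pax3* cells (55 RPM, 28% of cells) and was at 26.1 RPM in *Pdgfra* cells (8.63%).

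*Dkk3*, a divergent member of the Dkk family, went the other way. It was at 52.8 RPM (51.1 to 54.4) in *Afp* cells, in 25.4% of them (15 to 38.4), and pools 2 to 5 were at 57.4, 62.7, 42.2 and 40.2 RPM. *Pdgfra* cells had 20.1 RPM and 12.9% of cells (7.86 to 19.7), with pools between 0.0421 and 33 RPM. The pools of the 2 lineages did not overlap, whereas the intervals of the shares did. *Sfrp4* (5 cells), *Sfrp5* (10 cells) and *Wif1* (16 cells) were found in few cells. *Wif1* had at least 1 read in 402 of 653 cells, and in *Afp*, *Klf1* and *Pax3* cells at E10.5 no cell exceeded 10 reads.

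Among the targets, *Axin2*, a negative feedback regulator and the most widely used reporter of canonical Wnt signalling (chr11:108920349-108950783, plus strand), was at 39.3 RPM in *Pdgfra* cells, 21.4 RPM in *Pax3* cells and 18.2 RPM in *Afp* cells at E10.5. It was present in 33.1% (25.4 to 41.6), 24% (9.36 to 45.1) and 23.7% (13.6 to 36.6) of these cells. Its *Pdgfra* pools ran from 2.19 to 57.2 RPM and its *Afp* pools from 13.9 to 34.1 RPM, so they overlapped. *Klf1* cells at E10.5 had 2 reads.

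*Nkd1*, a feedback inhibitor that acts on Dishevelled, was at 138.6 RPM in *Pdgfra* cells (41% of cells), 74.2 RPM in *Pax3* cells (52%) and 27.9 RPM in *Afp* cells (18.6%). *Klf1* cells at E10.5 had 0 reads, which allows a share of cells of up to 9.38% (3 of 32 cells) or, by the exact interval, 10.9%. *Lef1*, a transcription factor that partners β-catenin (chr3:131110471-131224356, plus strand), was highest in *Pax3* cells at 159.6 RPM, in 20 of 25 cells (80%, 59.3 to 93.2). It was at 94.1 RPM in *Pdgfra* cells (41.7%) and 8.32 RPM in *Afp* cells (8.47%).

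*Sp5*, a transcription factor and a direct Wnt target (chr2:70474923-70477729, plus strand), separated the lineages in an order of its own. *Pax3* cells had 114.8 RPM (111.1 to 118.6), with more than 10 reads in 10 of 25 cells (40%, 21.1 to 61.3). *Afp* cells had 12.2 RPM, with 6 of 59 cells (10.2%, 3.82 to 20.8) and pools 2 to 5 at 10.7, 12, 35.5 and 8.27 RPM. *Pdgfra* cells had 0.669 RPM and 3 cells with more than 10 reads (2.16%, 0.447 to 6.18), and 3 of their 5 pools had 0 reads. Of the *Afp* reads 50.6% came from 1 cell. Per kilobase, *Sp5* led the targets of the *Pax3* cells (54.7 RPKM, before *Lef1* at 18.2) and came behind *Nkd1* in *Afp* cells (5.79 against 6.12 RPKM), while *Nkd1* led in *Pdgfra* cells (30.4 RPKM).

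The sequence before the start sites of *Sp5* and *Lef1* is shown because both were highest in *Pax3* cells, while their order in *Afp* and *Pdgfra* cells was opposite. The 250 bases upstream of each RefSeq start site were searched on both strands for the motif CTTTGAT, the motif CTTTGAA, the motif CTTTGTT and the motif CTTTGTA, forms that Tcf and Lef factors are known to bind. The *Sp5* sequence covers chr2:70474673-70474922 (GRCm38.p6, plus strand) and holds CTTTGAT on the same strand and CTTTGTT on the opposite strand, the latter 222 bases before the start site. The *Lef1* sequence covers chr3:131156127-131156173 (plus strand), before an internal start site of the gene, and holds CTTTGTA on the opposite strand. The other *Lef1* starts in the table had no match. Matches are in capitals, and sequences are from RefSeq.
Sp5: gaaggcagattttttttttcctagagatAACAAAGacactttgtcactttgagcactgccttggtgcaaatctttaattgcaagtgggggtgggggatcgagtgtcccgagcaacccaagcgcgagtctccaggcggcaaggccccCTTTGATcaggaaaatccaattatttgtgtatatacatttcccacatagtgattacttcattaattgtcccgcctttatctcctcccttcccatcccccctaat
Lef1: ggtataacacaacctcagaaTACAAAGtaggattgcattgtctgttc
Any of the 4 motifs was found in 14.8% of 32851 promoters of the table and in 6 of 41 promoters of the 33 listed genes it holds (14.6%), which is the background share. A match is a run of letters and not a shown binding site. *Axin2*, *Nkd1* and *Tcf7* had no match in these windows.

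*Ctnnb1*, which encodes β-catenin and is regulated mainly at the protein level, was at 71.5 RPM in *Pdgfra*, 42.2 RPM in *Pax3*, 11.5 RPM in *Afp* and 22.8 RPM in *Klf1* cells at E10.5. The shares were 41%, 44%, 11.9% and 12.5%. Unlike the targets, it was therefore present in *Klf1* cells at a level between those of the other lineages. *Tcf7* had more than 10 reads in 3 of 653 cells. Part of the exon sequence of *Ctnnb1* (15.1%), *Lef1* (13.7%) and *Sfrp2* (16.1%) overlaps other annotated genes, and reads of overlapping genes on opposite strands cannot be told apart without strand.

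Between *Pdgfra* and *Afp* cells at E10.5, 3 of 9 ligands, 2 of 11 receptors, 6 of 8 inhibitors and 4 of 5 targets and effectors tested were called. A gene was called when the summed level of the 2 sets differed at least 2-fold and in the same direction in every pool with at least 5 cells of both sets, here pools 2 to 5. Of the 46 genes 33 had a mean level of at least 1 RPM, and 15 were called, 12 higher and 3 lower in *Pdgfra* cells. Over all 13691 genes tested, 18.9% were called, 12% higher and 6.85% lower. Called higher were 3 ligands (*Wnt2* 757-fold, *Wnt5a* 794-fold and *Wnt5b* 4.78-fold), *Fzd2* (15.6-fold), 5 inhibitors (*Sfrp1* 128.7-fold, *Dkk2* 742-fold, *Dkk1* 159.4-fold, *Wif1* 22.5-fold and *Sfrp5*, with 3 reads in *Afp* cells) and *Nkd1* (4.97-fold), *Lef1* (11.3-fold) and *Ctnnb1* (6.2-fold). *Sfrp5* was at 9.86 RPM in *Pdgfra* and 0.0409 RPM (0.00844 to 0.12) in *Afp* cells. Called lower were *Sp5* (12.2 RPM in *Afp* cells against 0.669), *Dkk3* (52.8 against 20.1 RPM) and *Fzd6* (15.1 against 0.337 RPM, from 3 *Afp* cells).

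Neither *Axin2* nor 9 of the 11 receptors tested was called between these lineages. The median log2 ratio was 2.45 over the listed genes and 0.3 over all genes tested. In a further check the cell with most reads of each gene was left out. It was left out of each set for the ratio and of each pool of a set for the direction. A call lost in this way, here and below, need not rest on a single cell. *Wnt5b*, *Fzd6*, *Sfrp5*, *Dkk3*, *Nkd1* and *Sp5* were then no longer called, so none was lower. Without pool 2, *Wnt5b* and *Dkk3* were no longer called and the count was 21. Among 73 other genes of the pathway, 20 were called higher and 7 lower. The largest ratios were those of *Lect2* (0.0524 against 387 RPM) and *Rhbg* (0.00582 against 51.9 RPM), both known as Wnt targets of the adult liver and low in *Pdgfra* cells, and of the R-spondin *Rspo1* (67.5 against 0.0409 RPM), an enhancer of Wnt signalling.

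**Figure D3:**
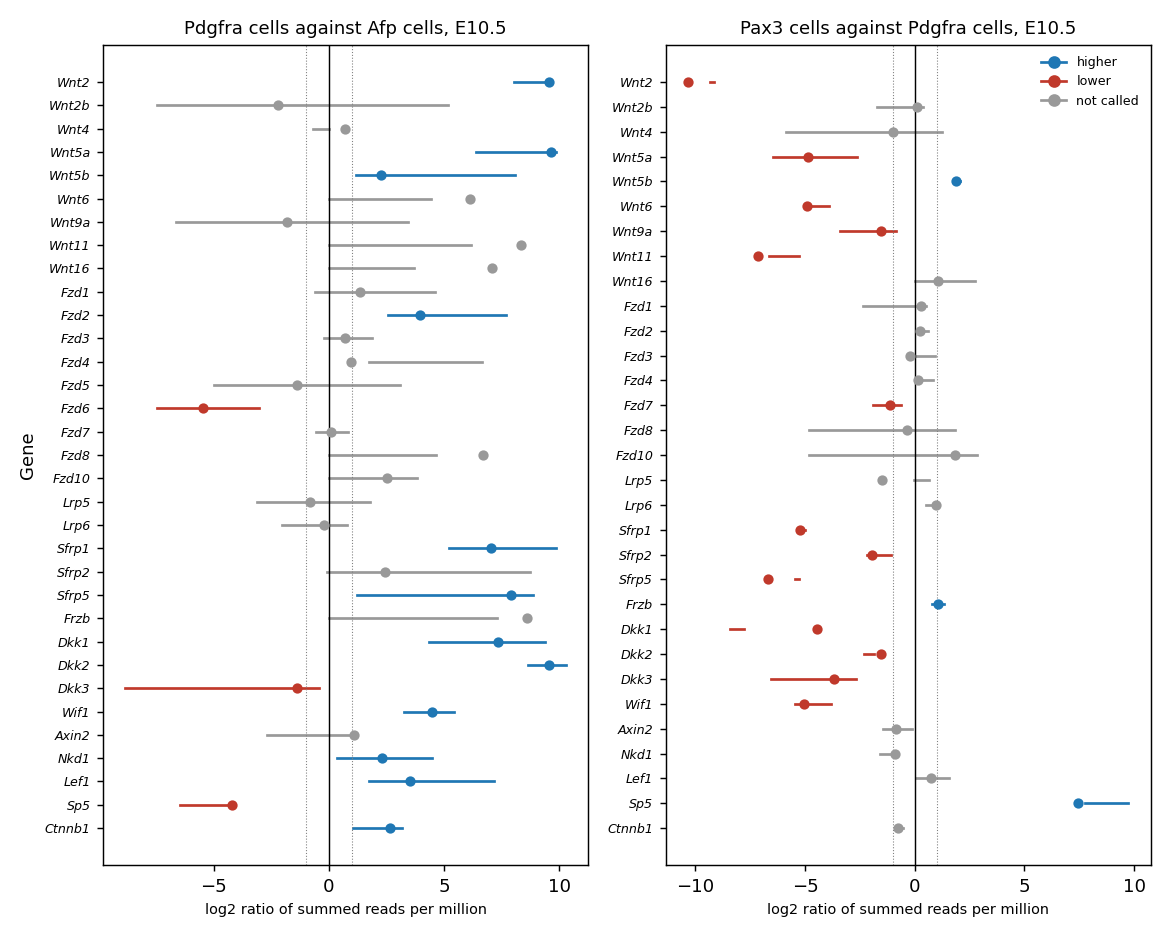
Log2 ratio of the levels in *Pdgfra* against *Afp* cells at E10.5 (left) and in *Pax3* against *Pdgfra* cells (right), with the ratio over all cells and the range over pools for each gene. Ratios above 0 are higher in the first named set. *Wnt2*, *Wnt5a* and *Dkk2* reach 9.56, 9.63 and 9.53 on the left, and *Sp5* stands at 7.42 on the right.

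The *Klf1* cells at E10.5 were poor in nearly every group of the list. This comparison and the next use the same *Pdgfra* cells. Of 31 listed genes tested, 25 were called, all lower in *Klf1* cells, where 38.9% of all 13443 genes were called, 10.6% higher and 28.3% lower. They were 7 of 9 ligands, 8 of 10 receptors, 7 of 8 inhibitors and *Axin2*, *Nkd1* and *Lef1*. *Nkd1*, with 0 reads in *Klf1* cells, was at least 1810-fold lower against a floor of 3 reads over the set, and *Sfrp1* was 794-fold lower. *Axin2* had 2 reads in *Klf1* cells (0.051 RPM, 0.00618 to 0.184). *Lrp6* differed least among the called receptors (2.23-fold), and *Ctnnb1* was not called (22.8 against 71.5 RPM). The 15 untested genes were under 1 RPM on average of both sets.

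The median log2 ratio was -6.2 over the listed genes and -0.41 over all. Without pool 4, *Wnt9a* and *Lrp6* were no longer called (23 genes), *Wnt9a* also without pool 3 or 5, *Fzd10* without pool 5 and *Lrp6* under median-of-ratios scaling. With the highest cell of each gene left out, *Wnt6*, *Wnt9a*, *Fzd8*, *Fzd10* and *Sfrp5* were not called. Among 70 other genes of the pathway, 47 were lower and 1 higher in *Klf1* cells. *Tbx3* (0.0766 against 76.5 RPM), *Rspo1* and *Rspo4* had the largest ratios, and both R-spondins had 0 reads in *Klf1* cells.

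Between *Pax3* and *Pdgfra* cells the calls lay mostly in ligands and inhibitors. Of 31 listed genes tested, 16 were called, 3 higher and 13 lower in *Pax3* cells, in pools 3 and 5. Over all 13406 genes, 26.3% were called, 5.2% higher and 21.1% lower. The 3 higher were *Wnt5b* (3.68-fold), *Frzb* (2.11-fold) and *Sp5* (171.6-fold). The lower genes were 5 ligands, namely *Wnt2*, *Wnt5a* (29.7-fold), *Wnt6*, *Wnt9a* and *Wnt11*, 7 of 8 inhibitors, among them *Sfrp1* (37.4-fold), and *Fzd7* (2.17-fold). *Pax3* cells had 3 *Wnt2* reads (0.0949 RPM, 0.0196 to 0.277).

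*Fzd7* was the only receptor called of 9 tested, *Fzd10* and *Lrp5* exceeded 2-fold but not in the same direction in both pools, and *Axin2*, *Nkd1* and *Lef1* were not called. The median log2 ratio was -0.9 over the listed genes and -0.25 over all. *Frzb* lost its call without pool 2, 3 or 5 and when its highest cell was left out, *Fzd7* without pool 2 or 3 and under median-of-ratios scaling, and *Wnt9a* without pool 3 or 5, while *Wnt5b* and *Sp5* kept theirs under each of these changes. Of 70 other pathway genes, 9 were higher and 21 lower, and *Rspo1*, *Rspo3* and *Rspo4* were the furthest apart (0, 0.0949 and 0.0316 RPM in *Pax3* cells against 67.5, 25.3 and 67.1 RPM).

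The parts of the pathway met in the same cells to different extents. At least 1 Wnt ligand was present in 16.9% of *Afp* cells (8.44 to 29), 71.2% of *Pdgfra* cells (62.9 to 78.6), 72% of *Pax3* cells and 18.8% of *Klf1* cells at E10.5. At least 1 Frizzled gene was present in 71.2%, 84.2%, 92% and 21.9% of these cells in turn. *Afp* cells thus had a Frizzled far more often than a ligand. A secreted inhibitor was found in 37.3%, 89.2%, 68% and 6.25%, and a target other than *Ctnnb1* in 40.7%, 63.3%, 84% and 3.12%.

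A Frizzled together with *Lrp5* or *Lrp6* was found in 50.8% of *Afp* cells, 54.7% of *Pdgfra* cells, 80% of *Pax3* cells and 12.5% of *Klf1* cells. The first 2 intervals overlapped (37.5 to 64.1% and 46 to 63.1%). A ligand and a target were present in 1 cell in 8.47%, 50.4%, 64% and 0% of the cells. After each cell was thinned to 100000 reads, at least 1 read of a ligand was found in 23.7% of *Afp*, 73.4% of *Pdgfra*, 72% of *Pax3* and 28.1% of *Klf1* cells.

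**Figure D4:**
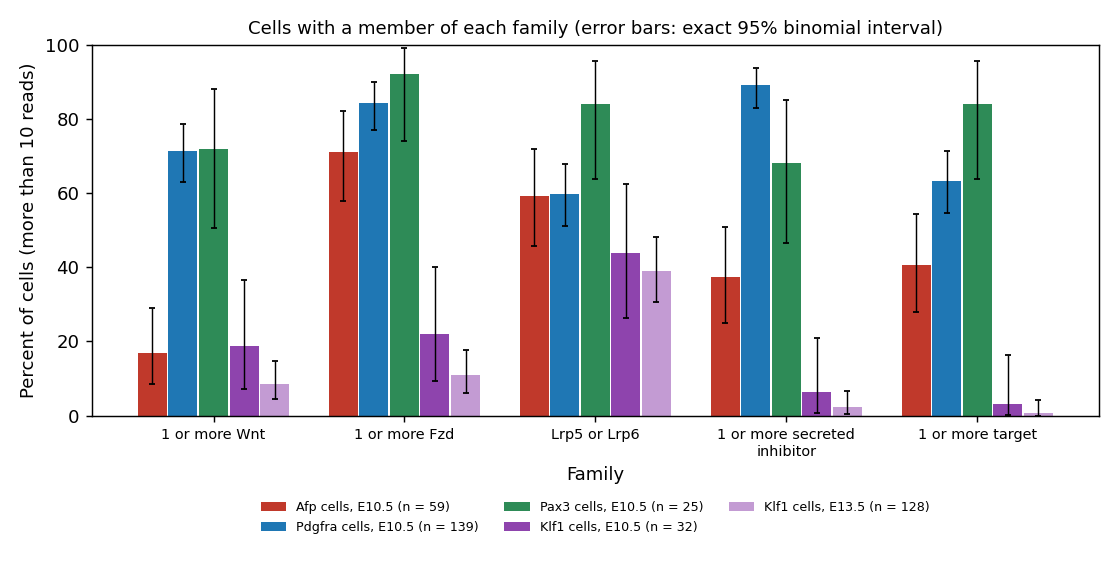
Percentage of cells with at least 1 gene of each family over 10 reads, by lineage, with exact 95% binomial intervals as error bars. The ligand bars of *Afp* (16.9%) and *Klf1* (18.8%) cells at E10.5 are low beside *Pdgfra* (71.2%) and *Pax3* (72%). That of *Klf1* cells at E13.5 is the lowest (8.59%), while the Frizzled bar of *Afp* cells stands at 71.2%.

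Shared cells were counted within the *Pdgfra* lineage, where *Sfrp1* was present in 77.7% and *Dkk2* in 34.5% of all cells. Of 46 cells with *Wnt2*, 43 also had *Sfrp1* (93.5%) and 32 had *Dkk2* (69.6%). Of 50 cells with *Wnt5a*, 41 had *Sfrp1* (82%), and *Wnt2* was found in 66.7% of the 48 cells with *Dkk2*. *Axin2* and *Nkd1* shared 30 cells, 65.2% of those with *Axin2* and 52.6% of those with *Nkd1*. In *Pax3* cells all 10 cells with *Sp5* also had *Lef1*, which 20 of 25 cells had. These counts are descriptions within 1 sample.

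The targets were also set beside *Lgr5* itself. Of the *Pdgfra* cells at E10.5, 19 had more than 10 *Lgr5* reads. *Axin2* was present in 63.2% of them (38.4 to 83.7) and in 28.3% of the other 120 (20.5 to 37.3). The shares for *Lef1* were 73.7% (48.8 to 90.9) and 36.7% (28.1 to 45.9), and *Sp5* was present in 3 and 0 cells. Those for *Nkd1* were 68.4% (43.4 to 87.4) and 36.7% (28.1 to 45.9), so its intervals overlapped. In *Afp* cells the targets went different ways, and their intervals overlapped. *Axin2* was present in 17.4% of 23 cells with *Lgr5* (4.95 to 38.8) and 27.8% of 36 without (14.2 to 45.2), and *Lef1* in 0% (upper limit 14.8) and 13.9% (4.67 to 29.5). *Nkd1* was present in 26.1% (10.2 to 48.4) and 13.9%, and *Sp5* in 17.4% and 5.56% (0.68 to 18.7). In the *Pax3* cells 8 had *Lgr5* and 17 did not, and the shares were 37.5% and 17.6% for *Axin2*, 62.5% and 47.1% for *Nkd1*, 87.5% and 76.5% for *Lef1* and 25% and 47.1% for *Sp5*. The intervals overlapped for each of these targets. Summed levels of *Nkd1* (24.8 against 96.1 RPM) and *Lef1* (129.65 against 172.8 RPM) went the other way from their shares. Those of *Axin2* and *Sp5* went the same way as the shares. Among the Lgr5-GFP+ cells at E10.5 without a lineage marker, 13 had *Lgr5* and 53 did not. Their shares were 76.9% (46.2 to 95) and 15.1% (6.75 to 27.6) for *Axin2*, 53.8% and 24.5% for *Nkd1*, 69.2% and 28.3% for *Lef1* and 30.8% and 5.66% for *Sp5*. The summed level of *Lef1* was close in these sets (102.05 against 98.3 RPM), while the other targets were higher with *Lgr5*. In *Pdgfra* and *Afp* cells the summed levels went the same way as the shares. Shares over all genes are not given beside these, and the part of genes per cell was not tested.

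Sorting by Lgr5-GFP at E10.5 gave *Pdgfra* cells with more of 2 targets. Of 32 listed genes tested, 3 were called in all 5 pools, 2 higher and 1 lower, against 2.28% of all 13660 genes, 1.21% higher and 1.08% lower. The median log2 ratio was 0.69 over the listed genes and 0.01 over all. The median number of genes per cell was 6666 in Lgr5-GFP+ and 5459 in bulk *Pdgfra* cells. Its part in the shares of cells was not tested. *Axin2* was at 58.4 RPM in Lgr5-GFP+ and 21.7 RPM in bulk *Pdgfra* cells, with 48.4% (35.8 to 61.3) and 20% (11.6 to 30.8) of cells. In pools 1 to 5 its Lgr5-GFP+ levels were 85.5, 5.96, 54.3, 68.7 and 46.9 RPM and its bulk levels 31.4, 0.0657, 33.1, 10.3 and 31 RPM. Each pool was higher after the sort for GFP, although pool 2 was low in both.

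*Lef1* was at 135.1 RPM in Lgr5-GFP+ and 56.3 RPM in bulk *Pdgfra* cells (54.7% and 30.7% of cells). Its pools 1 to 5 gave 228, 171.1, 115.7, 81.8 and 133.2 RPM against 36.9, 33.7, 79.2, 68.3 and 54.4 RPM, and the 2 sets of pools did not overlap. *Fzd7* was lower, at 38.6 against 77.8 RPM, just past 2-fold, and its share of cells was not (42.2% and 37.3%). *Nkd1* (207.8 against 74.7 RPM) and *Dkk2* (308 against 124.3 RPM) exceeded 2-fold but not in every pool.

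*Lef1* lost its call without pool 1 and with a marker limit of 50 reads, and *Fzd7* in both cases and without pool 2. *Axin2* and *Fzd7* lost their calls when the highest cell of each set and pool was left out, when levels were averaged over cells and after thinning. The count was 5 without pool 1, 2 or 3 and 6 without pool 4. The summed level of 9 mesenchymal markers was 4354 RPM in Lgr5-GFP+ and 3270 RPM in bulk *Pdgfra* cells (all 9 over 1 RPM in both), that of 5 mesothelial markers 882 and 438 RPM (5 and 4 over 1 RPM) and that of 10 erythroid markers 18.7 and 51.4 RPM (5 and 6 over 1 RPM), and their part in the result was not tested. Of 70 other pathway genes 3 were called, all higher in Lgr5-GFP+ cells, namely *Tbx3* (130.1 against 27 RPM), *Rspo4* (111.2 against 26.4 RPM) and *Prickle1* (109.7 against 31.4 RPM).

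When all E10.5 cells were compared by sort, 3 of 36 listed genes were called, all higher in Lgr5-GFP+ cells, against 4.37% of all 14284 genes, 2.52% higher and 1.85% lower. The cells of the preceding comparison are among these. *Wnt2* was at 73.9 against 35 RPM, with 19% and 11.8% of cells. *Wnt2b*, a ligand related to *Wnt2*, was at 14.8 against 2.27 RPM, and 49.4% of the first came from 1 cell. *Fzd6* was at 6.62 against 0.968 RPM in 13 and 3 cells.

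*Axin2* was present in 32.2% of Lgr5-GFP+ cells (26 to 39) and 13.8% of bulk cells (9.37 to 19.3), though its summed level (33.2 against 21.8 RPM) was less than 2-fold apart. *Lef1* had 40.3% against 19.7% of cells and *Nkd1* 38.4% against 20.7%. The median number of genes per cell was 6120 in Lgr5-GFP+ and 5490 in bulk cells, and its part in these shares was not tested. *Lgr5*, the gene behind the sort, was at 65.3 against 2.69 RPM, present in 29.4% of Lgr5-GFP+ and 2.46% of bulk cells, and was called, with *Rhbg* and *Lect2*, among 6 other pathway genes that were higher. Another 1 of 75 was lower. Without pool 4, *Wnt2* was no longer called, and without pool 1 the count was 8. After thinning *Wnt2* and *Fzd6* were not called, and with the highest cell of each gene left out *Wnt2b* and *Fzd6* were not. The groups differed in makeup, since 12 hepatoblast markers summed to 4928 RPM in Lgr5-GFP+ and 698 RPM in bulk cells and 10 erythroid markers to 31.3 and 632 RPM. The part of makeup in these levels was not tested.

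At E13.5 most of the list was low in bulk cells, and 4 of 25 genes tested were called by sort, all higher in Lgr5-GFP+ cells, against 15.6% of all 13574 genes, 6.83% higher and 8.79% lower. *Fzd4* was at 74.2 RPM in Lgr5-GFP+ and 0.181 RPM in bulk cells, in 16 of 80 cells (20%, 11.9 to 30.4) and 1 bulk cell (0.629%). Its 5 Lgr5-GFP+ pools were at 93.3, 16.9, 129.02, 62 and 113.05 RPM, and no bulk pool exceeded 0.433 RPM. *Fzd1* (26.2 against 0.395 RPM), *Sfrp1* (30.4 against 0.463 RPM) and *Ctnnb1* (55.9 against 21.6 RPM) were the others.

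Of the *Sfrp1* reads in Lgr5-GFP+ cells 57.2% came from 1 cell. With the highest cell of each gene left out of each set and pool, none of the 4 was called, and after thinning 2 were. Without pool 2 *Ctnnb1* was not called, and without pool 3 the count was 7. The 7 endothelial markers summed to 1756 RPM in Lgr5-GFP+ (7 of 7 over 1 RPM) and 25.9 RPM in bulk cells (3 of 7), and the 9 mesenchymal markers to 3401 (8 of 9) and 106.1 RPM (4 of 9), and their part in these levels was not tested. *Axin2* and *Lef1* were not called (1.62 and 3.6 RPM in Lgr5-GFP+ cells). Of 65 other pathway genes 16 were higher and 0 lower, led by *Tcf7l1* (86.9 against 1.87 RPM), *Kremen1* (43.5 against 1.45 RPM) and *Prickle2* (60.3 against 2.44 RPM).

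From E10.5 to E13.5, bulk cells had called genes in every role. Of 34 genes tested, 17 were called, all lower at E13.5, against 20.1% of all 13586 genes, 5.85% higher and 14.2% lower. They were *Wnt2*, *Wnt4* and *Wnt9a*, 6 of 10 receptors, *Sfrp1*, *Sfrp2*, *Dkk2* and *Dkk3*, and *Axin2*, *Nkd1*, *Lef1* and *Ctnnb1*. *Sfrp1* was at 340 RPM at E10.5 and 0.463 RPM at E13.5, with 49.8% (42.7 to 56.8) and 0% of cells. *Nkd1* was at 55.9 and 0.0846 RPM, and *Axin2* at 21.8 and 0.35 RPM.

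*Lrp6*, in contrast, was at 79.6 and 63.9 RPM and was not called, with 45.3% and 30.8% of cells. *Wnt9a* lost its call without pool 5, *Wnt9a* and *Dkk3* after thinning, and *Wnt4*, *Wnt9a* and *Ctnnb1* with the highest cell of each gene left out. *Wnt5a* at E13.5 (24.6 RPM) rested on 1 cell with 99.5% of the reads. The median log2 ratio was -6.54 over the listed genes and -0.27 over all. Over the same cells, the 10 erythroid markers went from 632 to 11000 RPM (10 of 10 over 1 RPM at both stages) and the 9 mesenchymal markers from 1909 to 106.1 RPM (9 and 4 over 1 RPM), and the part of this in the levels was not tested. Of 73 other pathway genes 32 were lower and 2 higher, and *Pygo1*, *Rspo1* and *Rspo4* were furthest apart (35.6, 37.1 and 23.6 RPM at E10.5, each under 0.1 RPM at E13.5).

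**Figure D5:**
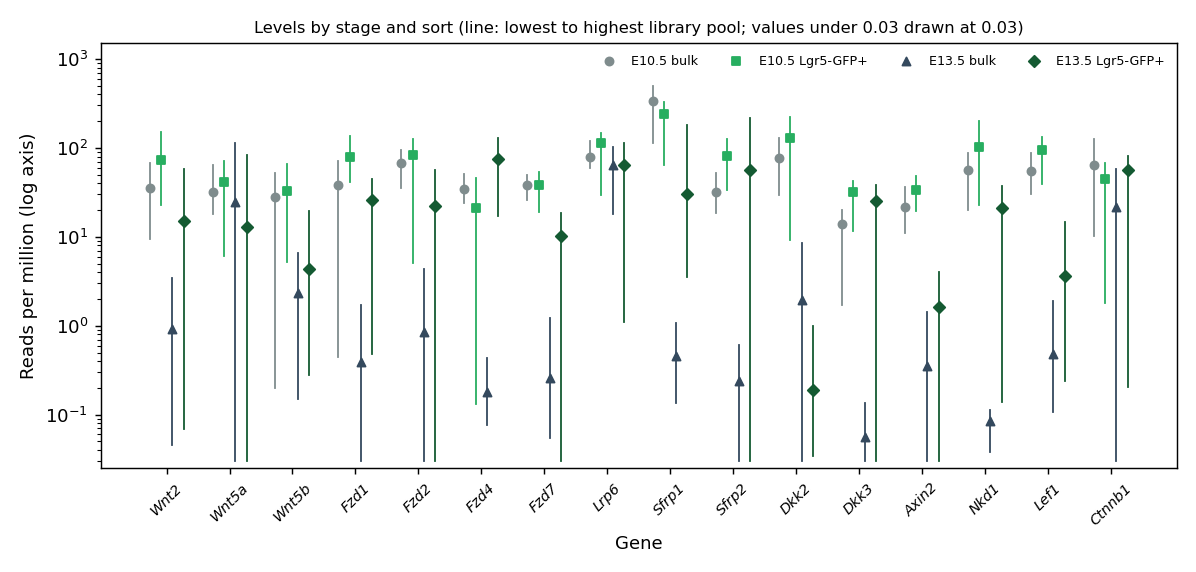
Levels in RPM (log axis) in the 4 stage and sort groups, as a point for all pools of a group and a line from the lowest to the highest library pool. Values under 0.03 are drawn at 0.03. *Sfrp1*, *Nkd1* and *Axin2* are lowest in E13.5 bulk cells, and *Fzd4* is highest in E13.5 Lgr5-GFP+ cells (74.2 RPM).

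In Lgr5-GFP+ cells 12 of 35 listed genes were called between the stages, 1 higher and 11 lower at E13.5, against 10.8% of all 14564 genes, 2.33% higher and 8.42% lower. The lower genes were *Wnt2*, *Wnt2b*, *Wnt5b*, *Fzd1*, *Fzd7*, *Sfrp1*, *Dkk1*, *Dkk2*, *Wif1*, *Axin2* and *Lef1*. *Dkk2* was at 130.4 and 0.192 RPM, *Lef1* at 93.8 and 3.6 RPM and *Axin2* at 33.2 and 1.62 RPM. *Axin2* was present in 32.2% of cells at E10.5 and 2.5% (0.304 to 8.74) at E13.5. *Nkd1* (103.7 and 21.2 RPM) was not lower in every pool.

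*Fzd4* was the gene called higher, at 74.2 against 21.4 RPM, although pool 1 at E10.5 was near 0 (0.131 RPM) and the share of cells was 20% (11.9 to 30.4) against 12.8% (8.6 to 18.1). With the highest cell of each gene left out, *Fzd4*, *Wnt2b*, *Wnt5b* and *Wif1* were not called, and *Fzd7* was not called after thinning or with levels averaged over cells. The 7 endothelial markers went from 53.7 RPM (5 of 7 over 1 RPM) to 1756 RPM (7 of 7) and the 12 hepatoblast markers from 4928 RPM (12 of 12) to 350 RPM (6 of 12), and their part was not tested. The median log2 ratio was -2.29 over the listed genes and -0.09 over all. Of 73 other pathway genes 15 were lower and 2 higher, with the widest ratios at *Lect2* (106.97 and 0.181 RPM), *Rspo4* (55.3 and 0.0959 RPM) and *Rhbg* (15.3 and 0.0107 RPM).

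Within a lineage, only the *Klf1* cells were numerous enough at both stages. Of 13 listed genes tested, 1 was called, against 12.7% of all 11217 genes, 8.05% higher and 4.64% lower. It was *Fzd6*, with 0 reads at E10.5 and 2.93 RPM at E13.5 in 4 cells (3.12%), at least 38.3-fold higher. It lost its call after thinning and when its highest cell in each set and pool was left out. The count was 4 without pool 3 and 3 without pool 5. *Lrp6* was at 39.2 RPM at E10.5 and 46.2 RPM at E13.5, with 37.5% (21.1 to 56.3) and 33.6% (25.5 to 42.5) of cells, and *Ctnnb1* at 22.8 and 21.4 RPM. *Axin2*, *Nkd1*, *Lef1* and *Sp5* stayed under 1 RPM at both stages. Of 47 other pathway genes 8 were higher and 2 lower, led by *Celsr2* (2.94 against 0.0255 RPM), *Zfp703* (2.6 against 0 RPM) and *Dvl1* (23.4 against 1.99 RPM). For *Pdgfra* cells the stages were not compared, because 8 cells were from E13.5.

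Cells without a lineage marker held a good part of the list at E10.5. In the 82 bulk cells of this kind *Sfrp1* was at 446 RPM (50% of cells) and *Lrp6* at 99.8 RPM. In the 66 Lgr5-GFP+ cells *Sfrp1* was at 245 RPM, *Dkk1* at 153.1 RPM (24.2% of cells), *Sfrp2* at 127.4 RPM and *Wnt5a* at 64.1 RPM (28.8%). At E13.5 the 62 such Lgr5-GFP+ cells had *Fzd4* at 74.6 RPM in 21% of cells, and *Wnt7a* at 45.1 RPM came almost whole from 1 cell (99.2%).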

How the data were processed

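Counts of reads per gene in 653 single cells were used as deposited. The authors made them from single-end 50-base Illumina reads of Smart-seq2 libraries, aligned with STAR 2.6.0c to GRCm38 and counted with featureCounts of Subread 1.6.2 on Ensembl 93. A deposited table of normalised values was not used here. Total counts ran from 463347 to 2279700 reads per cell, and precision is given by exact intervals. The 46 genes, the pathway list and the marker lists were chosen with earlier results of these data known. Genes with more than 10 reads in at least 10% of cells of a lineage (both stages) or group are given in full. The others are given by the number of cells that had them or its range, and other pathway genes by up to 3 largest called ratios. The labels do not tie cells to the study's biological replicates, so a group counted once (n = 1) and groups were not tested against each other. Genes with a mean of at least 1 RPM over both sets were compared; a call needed a 2-fold ratio in the same direction in every pool with at least 5 cells of both sets. A level under 3 reads was set to that floor, and a pool with both sets under it gave no direction and hence no call. Pools with fewer than 5 cells of either set counted in the sums only. Calling was checked on counts simulated for *Pdgfra* against *Afp* cells and for all E10.5 cells by sort. The simulation had a single dispersion and no differences between pools. It therefore does not show how calls behave where pools differ or few cells hold most reads. Alternatives were the mean over cells, median-of-ratios scaling, no filter, thinning to 100000 reads, other marker rules, single pools left out, pools 1 and 2 only, fold alone and, chosen after seeing the data, the highest cell of each gene left out. The highest cell was left out of each set for the ratio and of each pool of a set for the direction. Promoters were RefSeq windows of 250 bases upstream. Python 3.11.15, numpy 2.4.6, pandas 2.3.3 and scipy 1.17.1 were used.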

Additional observations from a re-analysis of the deposited data

Results flagged for a closer look

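*Fzd4* moved in opposite directions between the stages in the 2 sorts. Its log2 ratio of E13.5 to E10.5 was -7.57 in bulk cells (0.181 against 34.4 RPM) and 1.8 in Lgr5-GFP+ cells (74.2 against 21.4 RPM), and the direction was the same in each of the 5 library pools within a sort. With the highest cell left out of each set and pool, the rise in Lgr5-GFP+ cells was not called. The 7 endothelial markers went from 53.7 to 1756 RPM in Lgr5-GFP+ and from 99 to 25.9 RPM in bulk cells, and their part was not tested. The difference between the sorts was not tested, since the labels do not tie cells to replicates.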

How the results depend on the processing

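Each count of called genes was recomputed under the alternatives. Without the demand for the same direction in every pool more genes were called, and percentages here are the share over all genes. Between lineages the counts were 27 of 33 (*Pdgfra* against *Afp*, 51.5%), 28 of 31 (*Klf1* against *Pdgfra*, 58.4%) and 20 of 31 (*Pax3* against *Pdgfra*, 43.3%). By sort they were 17 of 32 (*Pdgfra* cells, 35%), 15 of 36 (all E10.5 cells, 27.5%) and 20 of 25 (all E13.5 cells, 59%). By stage they were 31 of 34 (bulk cells, 49.1%), 28 of 35 (Lgr5-GFP+ cells, 49.9%) and 9 of 13 (*Klf1* cells, 35.4%). For *Klf1* cells by stage the count of 1 became 0 after thinning and with the highest cell of each gene left out, 2 with any marker over 10 reads and 2 with more than 50 marker reads. For *Pdgfra* cells by sort the count of 3 became 1 with the mean over cells, 1 after thinning, 1 with more than 50 marker reads and 8 in pools 1 and 2 only. For all E10.5 cells by sort it was 10 in pools 1 and 2 only. For all E13.5 cells by sort the count of 4 became 2 after thinning, 10 in pools 1 and 2 only and 0 with the highest cell left out. With 1 pool left out the counts ran from 15 to 21 (*Pdgfra* against *Afp*), 23 to 26 (*Klf1* against *Pdgfra*), 15 to 19 (*Pax3* against *Pdgfra*), 1 to 4 (*Klf1* by stage), 3 to 6 (*Pdgfra* by sort), 2 to 8 and 3 to 7 (all cells by sort at E10.5 and E13.5), and 17 to 20 and 12 to 17 (bulk and Lgr5-GFP+ by stage). The log2 ratio of *Sfrp5* in *Klf1* against *Pdgfra* cells turned to 0.54 when cells with several markers were counted in each of their lineages. Fewer pools ask for fewer agreeing directions, and the cause of the other changes was not tested. Of the log2 ratios under all alternatives, 1077 of 1230 moved by less than 1, 12.4% moved by more and 1 changed sign. Fold alone and no filter cannot move a ratio, and median-of-ratios scaling shifts all ratios of a comparison by the same amount. The 96 ratios under each of these are among the 1077. Of the levels 61.9% and of the shares of cells 39.4% moved out of their counting interval. Calls named in the report were also lost after thinning (*Fzd6* and *Sfrp5* in *Pdgfra* against *Afp* cells, *Wnt6*, *Wnt9a* and *Fzd10* in *Klf1* against *Pdgfra* cells, *Wnt6*, *Wnt9a* and *Frzb* in *Pax3* against *Pdgfra* cells, and *Fzd1* and *Ctnnb1* in E13.5 cells by sort), when any marker counted (*Dkk3*, then *Wnt11*, *Sfrp5* and *Frzb*, then *Frzb* in the same lineage comparisons), with more than 50 marker reads (*Fzd6* and *Dkk3*, then *Wnt6*, then *Wnt6*, *Fzd7* and *Frzb*) and with the mean over cells (*Frzb* in *Pax3* against *Pdgfra* cells, *Wnt2* in E10.5 and *Ctnnb1* in E13.5 cells by sort). Pools 1 and 2 alone gave too few cells for the comparisons of *Klf1* with *Pdgfra* cells, of *Pax3* with *Pdgfra* cells and of *Klf1* cells by stage. No paired analysis was possible because the labels do not tie cells to the study's biological replicates and numbers given to cells do not pair them. The number of cells limits the shares, as 0 of 25 *Pax3* cells allows a share of up to 12% (3 cells) or 13.7% (exact interval).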
